A study of Homo sapiens with 18 samples.

Results

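H3K27ac regions that were called in untreated NB4 cells and no longer called after maltonis are described here. The peaks of the 6 H3K27ac libraries were merged wherever they overlapped by at least 1 bp on chromosomes 1 to 22, which gave 36228 merged regions. A merged region was lost when it held a peak in all 3 untreated lists and in 0 of the 3 maltonis lists. This selected 2176 regions, or 6.01% of all merged regions, covering 9.58 of 308 Mb. The opposite pattern, called gained here, selected 597 regions, while 19504 regions were called in all 6 lists. The rule is sensitive to where each list ends, since with a common lowest island score in all 6 lists it gave 3149 lost and 337 gained regions.

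NB4 is an established human cell line derived from acute promyelocytic leukemia (APL). Cells of this line were left untreated or received 10 µM maltonis, a maltol derivative dissolved in water, for 24 h, and 3 histone marks were profiled by chromatin immunoprecipitation followed by sequencing (ChIP-seq) in triplicate in each condition. The 18 libraries therefore form 6 groups of 3, all from a single cell line, and each library has its own peak list. Coordinates are those of hg19, the build named in the submitters' notes, and no gene annotation or genome sequence of that build was used here, so regions are named by position and the cell type could not be checked against marker genes.

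Acetylation of histone H3 at lysine 27 (H3K27ac) is placed by acetyltransferases at active promoters and enhancers and is removed by histone deacetylases. Trimethylation at lysine 4 (H3K4me3) sits mainly at active promoters, so its presence under an acetylated region helps to tell promoter-like from distal regions. Trimethylation at lysine 9 (H3K9me3) is a repressive mark of heterochromatin that is usually found apart from the other two.

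The H3K27ac lists were of similar depth. They held 19125730 to 20005075 reads in peaks in untreated and 17659587 to 20412339 in maltonis libraries, and 34041 to 35595 against 31417 to 34804 autosomal peaks. Their extent differed more, with 215 to 226 Mb covered in untreated and 169 to 182 Mb in maltonis libraries. H3K4me3 lists held 16909 to 17333 peaks over 23.4 to 23.8 Mb in untreated and 15418 to 15955 peaks over 25.2 Mb in maltonis libraries. H3K9me3 lists held 3117646 to 3344547 reads in peaks in untreated libraries and 2584920 to 3206148 in maltonis libraries, with the lowest value in maltonis replicate 3, which also covered least (141 Mb, the other 5 libraries 162 to 170 Mb). A peak list reports only what passed the caller, so a region that is not listed may still carry some signal.

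The lost regions were short and weak members of the H3K27ac landscape. Their median merged width was 3800 bp (interquartile range 2800 to 5400 bp, extremes 600 and 23400 bp), against 8400 bp in regions called in all 6 lists and 5400 bp in all merged regions. Gained regions were narrower still, with a median of 3000 bp. Only 56 lost regions reached 10 kb. In 2041 lost regions (93.8%) each untreated list had a single peak. Because the members were selected on these H3K27ac lists, their width, reads and scores are given as a description without a test.

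The deposited read count of a lost region had a median of 101, 111 and 107 in untreated replicates 1, 2 and 3, which is 106 ± 5.03 (SD, n = 3). Regions called in all 6 lists had a median of 499 ± 14.4 reads (SD, n = 3) in the same libraries. Part of that gap is length, but the density differed too, with 37.5 ± 0.182 reads per kb called in lost regions and 78.5 ± 0.0425 in regions called in all 6 (SD, n = 3). Replicates gave similar values for single regions, with a median coefficient of variation of 15.3% over the 3 untreated libraries after scaling to reads in peaks. By island score, the value by which the caller scores each region, the typical lost region stood at percentile 28.2, 26.3 and 25.8 of its untreated list. The part of length in this score was not tested. Between 3.91% and 5.33% of lost regions were above the median score of their list, against 76.7% ± 1.06 (SD, n = 3) of regions called in all 6. Gained regions were weak as well, with a median of 85.3 ± 4.51 reads and percentile 27.1 ± 2.45 in the maltonis lists (SD, n = 3).

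**Figure D1:**
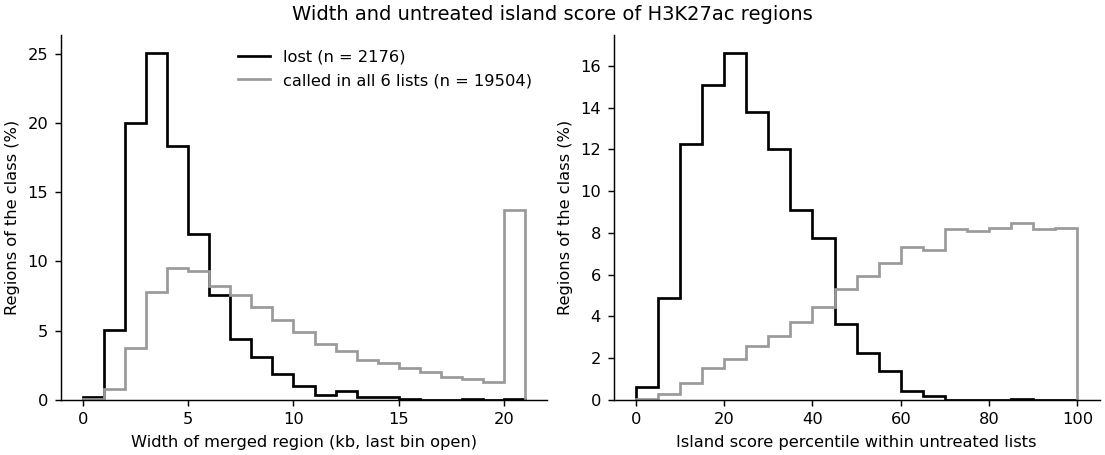
Left, width of merged H3K27ac regions in kb (last bin open); right, island score percentile averaged over the untreated lists. Lines give the percent of 2176 lost (black) and 19504 regions called in all 6 lists (grey); lost regions have a median width of 3800 bp and gather in the lower percentiles, while widths of regions called in all 6 have a median of 8400 bp.

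The island score at which a list ends differed between conditions. The lowest score listed was 36.2 to 39.9 in untreated libraries and 27.1 to 32.7 in maltonis libraries. In 1080 lost regions (49.6%) the lowest of the 3 untreated scores exceeded 55.1, the highest 25th percentile of a maltonis list, and in 76 (3.49%) it exceeded 150, the highest maltonis median. Scores of different libraries are not normalised to each other and come from the lists that chose the regions, so these are descriptions, and the part of the caller's threshold in the loss of a call was not tested.

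Regions that missed the rule by keeping a call in some maltonis lists were a little wider and held more untreated reads. The 1147 regions with 3 untreated peaks and 1 maltonis peak had a median merged width of 4800 bp and 121 ± 6.66 untreated reads (SD, n = 3), and the 1238 regions with 3 untreated and 2 maltonis peaks had 5200 bp and 133 ± 6.66 reads (SD, n = 3). The 1561 regions with 2 untreated and 0 maltonis peaks were as narrow as the lost ones at 3800 bp and held 92.7 ± 7.51 reads (SD, n = 3) where called. By median reads the lost regions thus stood between these groups.

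A handful of lost regions were far stronger than the rest. The strongest, at chr11:45473801-45497200, was 23400 bp wide and held 1690, 1773 and 1625 reads in untreated replicates 1, 2 and 3. The next region had a mean of 597. In all 3 maltonis lists neither this interval nor the 50 kb on either side held any H3K27ac peak, where the untreated flanks had held 5.6, 5.2 and 2.0 kb. It also carried H3K4me3 in all 3 untreated lists, with a fold enrichment over background of 3.99, 3.18 and 3.68, and in 0 maltonis lists.

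The next strongest region, chr7:150655601-150663400, held 616, 584 and 590 untreated reads in 7800 bp. It was followed by chr18:46357401-46370400 with 517, 586 and 554 reads and by chr3:14607201-14614200 with 455, 468 and 487 reads. The region on chromosome 18 stood alone, with no H3K27ac peak of any library in the 50 kb on either side. Ranks 5 to 8 by mean reads had 403 to 450 reads and lay at chr9:116992601-117001600, chr7:117983601-117995800, chr10:124298201-124306000 and chr15:70554401-70566600. In every list the flanks of these last 4 held less H3K27ac after maltonis than before, for example 34.6, 34.2 and 36.2 kb untreated against 16.8, 13.2 and 13.0 kb at chr7:117983601-117995800.

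Lost regions were found on every autosome. The share of merged regions that was lost had a median of 6.26% over chromosomes. It was lowest on chromosome 19 with 44 of 1372 regions (3.21%, 95% Wilson interval 2.40 to 4.28) and highest on chromosome 21 with 33 of 375 (8.8%, 6.33 to 12.1). These intervals cover counting error only.

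Within chromosomes the lost regions lay near each other more often than regions called in all 6 lay near them. Of the 2176 regions, 642 (29.5%, 95% Wilson interval 27.6 to 31.5) had another lost region within 50 kb, and 232 within 10 kb. The interval covers counting error only and takes regions as independent, although lost neighbours count each other. Among regions called in all 6 lists, 3044 (15.6%) had a lost region within 50 kb. Counted along the chromosome, the next merged region after a lost region was lost too in 288 of 2175 cases (13.2%), against 1113 of 19490 (5.71%) after a region called in all 6. A gained region lay within 50 kb of 43 lost regions (1.98%) and of 1070 regions called in all 6 (5.49%). Gained regions lay near each other too, since 84 of 597 (14.1%) had another gained region within 50 kb. Since H3K27ac calls define every class here, these shares are a description.

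Most lost regions nevertheless had no other lost region within 50 kb. The median distance to the nearest lost region was 144.9 kb, and to the nearest region called in all 6 it was 17.7 kb. Lost regions numbered 2176 and regions called in all 6 numbered 19504, so these distances are not like for like. A region called in all 6 lay within 50 kb of 1582 lost regions (72.7%). This share was lower than the 83.8% of regions called in all 6 with another such region and the 83.1% of gained regions. Joining lost regions with gaps of at most 50 kb left 1534 single regions and 283 chains, of which 226 had 2 members, 46 had 3, 7 had 4, 2 had 5, 1 had 6 and 1 had 8. Regions with a lost neighbour were slightly wider and stronger than lone ones, with median widths of 4300 and 3800 bp and median reads of 115 and 105.

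The longest chain lay at chr9:3920001-4050200 and held 8 lost regions in 130.2 kb. Its 8 members held 97.3 to 235 reads on average. Untreated replicates 1, 2 and 3 had 61.6, 53.0 and 54.0 kb of the span under H3K27ac peaks, and maltonis replicates had 0, 7.0 and 2.4 kb, so the conditions did not overlap. The same span carried broad H3K9me3, at 88.8, 84.4 and 82.4 kb in untreated and 103.6, 86.0 and 65.6 kb in maltonis libraries, which overlapped between conditions. H3K4me3 was nearly absent, with a peak of 0.616 kb in untreated replicate 2 only. H3K9me3 overlapped 7 of the 8 lost regions in all 3 untreated lists and the remaining region in 2, so both marks were called over the same stretch before treatment. The mean H3K9me3 cover differed between conditions by less than the spread between maltonis replicates.

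**Figure D2:**
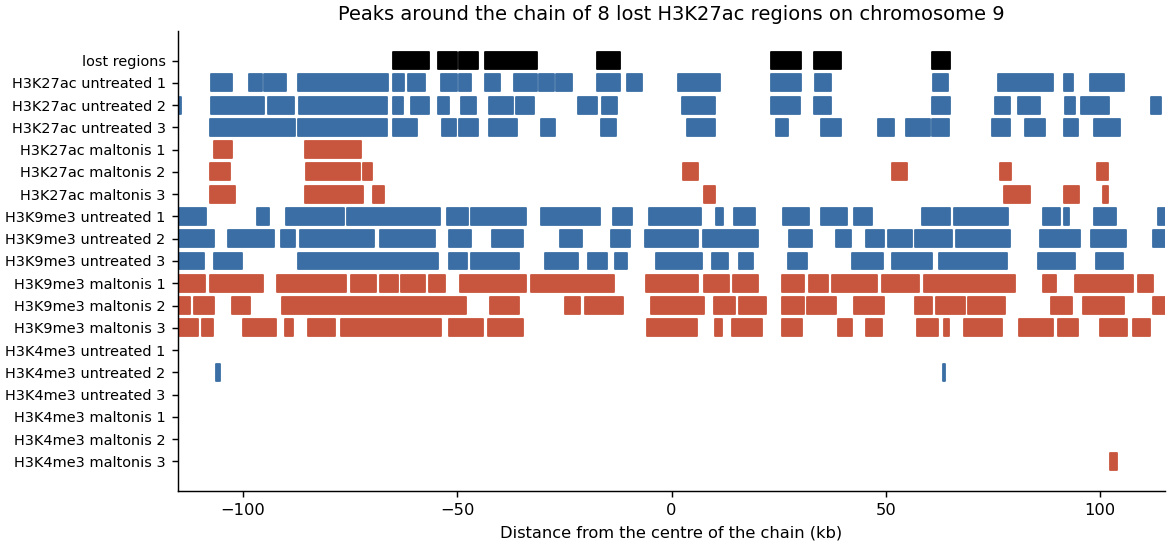
Peaks in 18 libraries around the chain of 8 lost H3K27ac regions on chromosome 9, as distance from the chain centre in kb; each row is a library, blue untreated and red maltonis, with the lost regions in black. H3K27ac covers 53.0 to 61.6 kb of the chain in untreated and 0 to 7.0 kb in maltonis libraries, while H3K9me3 bars fill much of both.

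The second chain, chr7:150593601-150710400, held 6 lost regions in 116.8 kb, among them the second strongest of all. H3K27ac covered 50.4, 52.2 and 44.2 kb of it in untreated and 10.0, 7.6 and 3.6 kb in maltonis libraries. Here H3K4me3 cover was also lower after maltonis, at 3.28, 3.33 and 3.78 kb against 1.29, 1.27 and 1.32 kb, and H3K9me3 cover was higher, at 20.8, 17 and 12.2 kb against 48.8, 29.6 and 32.6 kb. Neither mark overlapped between conditions in this interval, which was named for its H3K27ac loss. The third chain, chr12:52652601-52703800, held 5 lost regions in 51.2 kb and no other merged H3K27ac region. H3K27ac covered 22.8, 21.8 and 17.4 kb of it in untreated and 0 kb in all 3 maltonis libraries, and its H3K4me3 cover was variable at 2.60, 1.81 and 0.2 kb against 0, 0 and 1.51 kb.

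The other marks were not used by the rule and could be compared between conditions. With 3 libraries against 3, the exact two-sided permutation test over 20 assignments of libraries cannot give a p below 0.1, so no library value can pass 0.05. Whether the libraries of both conditions overlapped is stated for that reason.

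Before treatment the lost regions were mostly distal to H3K4me3. The reference was 13423 H3K4me3 regions called in all 3 untreated lists. Of the lost regions 238 (10.9%) lay on such a region and 884 (40.6%) lay more than 50 kb from it, with a median distance of 35.2 kb. Among regions called in all 6 H3K27ac lists 56.7% lay on such a region and 15.1% lay more than 50 kb away. Over all merged regions the shares were 32.4% and 23.0%. Gained regions were distal too, with 3.85% on such a region, 35.5% more than 50 kb away and a median distance of 29.2 kb.

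H3K4me3 was called at fewer lost regions after maltonis. A peak overlapped 394, 371 and 382 of the 2176 regions in untreated replicates 1, 2 and 3 and 160, 125 and 144 in maltonis replicates. As a share this was 17.6% ± 0.529 without and 6.57% ± 0.805 with maltonis (SD, n = 3 each; exact permutation p = 0.1, the smallest possible), and every maltonis library was below every untreated library. Regions called in all 6 H3K27ac lists went from 64.0% ± 0.459 to 62.2% ± 0.146 (SD, n = 3 each), and gained regions went the other way, from 5.47% ± 0.256 to 8.77% ± 0.387 (SD, n = 3 each). The difference itself was tested by the share at lost regions over the share at regions called in all 6 in the same library. That ratio was 0.282, 0.268 and 0.273 in untreated and 0.118, 0.0925 and 0.106 in maltonis libraries, and the conditions did not overlap (exact permutation p = 0.1). Nearly all of this lay in weak H3K4me3 peaks: counting only peaks with a −log10 q of at least 10, the share at lost regions differed by −1.09 percentage points, still without overlap, against −11.0 with all peaks.

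**Figure D3:**
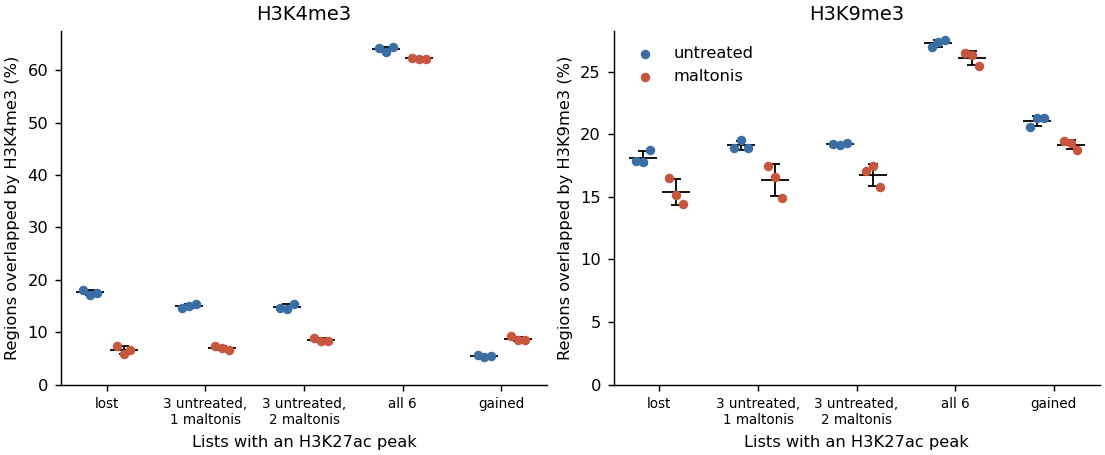
Percent of H3K27ac regions overlapped by H3K4me3 (left) and H3K9me3 (right), by the lists that called them; points are libraries (blue untreated, red maltonis), bars the mean and SD of 3. H3K4me3 at lost regions goes from 17.6% to 6.57%, against 64.0% to 62.2% at regions called in all 6.

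The neighbouring classes followed the same order. The H3K4me3 share went from 14.9% ± 0.393 to 7.004% ± 0.352 at regions with 3 untreated and 1 maltonis H3K27ac peaks and from 14.8% ± 0.494 to 8.56% ± 0.352 at those with 3 and 2 (SD, n = 3 each). The H3K4me3 difference was thus largest where no maltonis list held an H3K27ac peak, among these 3 classes with H3K27ac in all untreated lists.

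Region by region, H3K4me3 at lost regions went mostly one way. In 503 lost regions (23.1%, against 11.1% of all merged regions) more untreated than maltonis lists had H3K4me3. In 60 (2.76%, against 5.75%) fewer had it, in 82 (3.77%, against 31.9%) as many had it and in 1531 (70.4%, against 51.2%) none did. H3K4me3 in all 3 untreated and 0 maltonis lists was found at 76 lost regions (3.49%), against 296 (0.817%) of all merged regions and 131 (0.672%) of regions called in all 6. The reverse pattern was found at 0 lost regions, against 130 (0.359%) of all merged regions. A count of 0 allows a share of up to 0.138% if regions are taken as independent, a limit that covers counting error only. Of the 236 lost regions with H3K4me3 in all 3 untreated lists, 63 kept it in 1, 38 in 2 and 59 in 3 maltonis lists.

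H3K4me3 under lost regions was weak to begin with, so weak peaks had to be compared with weak peaks. The 236 lost regions with H3K4me3 in all 3 untreated lists had a median −log10 q of 4.64 and a median fold enrichment of 3.60, and the 11127 such regions called in all 6 H3K27ac lists had 32.2 and 4.66. At a mean untreated −log10 q of 3 to 5, maltonis replicates 1, 2 and 3 still called H3K4me3 at 36.7, 32.2 and 38.9% of 90 lost regions and at 89.6, 89.1 and 88.4% of 613 regions called in all 6. At 5 to 10 the values were 57.7, 61.5 and 57.7% of 78 lost regions against 96.4, 97.3 and 96.8% of 954. At 1 to 3 they were 19.6, 17.4 and 21.7% of 46 against 67.9, 69.2 and 67.9% of 806. H3K4me3 was therefore called less often at lost regions in each of these 3 bins and in every maltonis library. A peak anywhere in the merged region counted, and region width was not matched. The median width was 3800 bp over all lost regions and 8400 bp over all regions called in all 6. The part of width in this difference was not tested. The median −log10 q of lost regions and of regions called in all 6 was 2.29 and 2.17 at 1 to 3, 3.83 and 3.89 at 3 to 5, and 6.33 and 7.23 at 5 to 10, so strength was closely alike in the lower bins only. At 10 to 30 only 22 lost regions remained, with 90.9, 77.3 and 77.3% kept against 99.8 to 99.9% of 2863, and their median −log10 q was 13.4 against 19.7. These bins were chosen after the data were seen, and the untreated share in them is complete by construction, so no test was made.

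**Figure D4:**
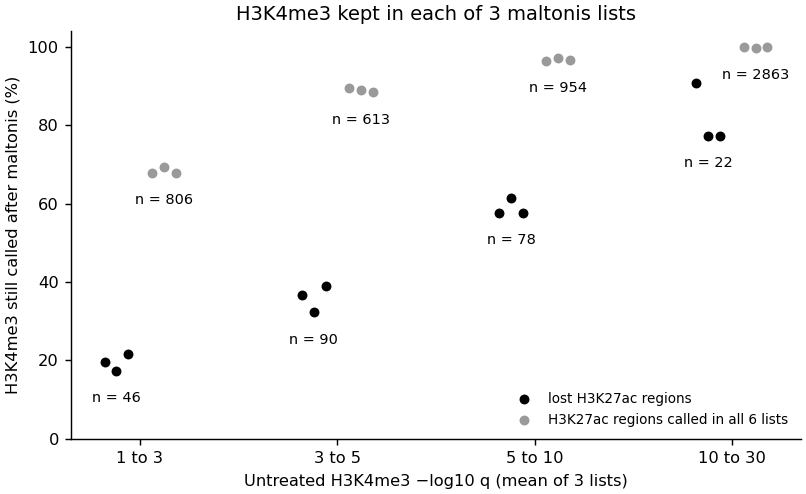
Percent of regions with H3K4me3 in all 3 untreated lists at which each maltonis list still called it, by mean untreated −log10 q; each point is a maltonis list, black for lost H3K27ac regions and grey for regions called in all 6. At 3 to 5 the black points lie at 32.2 to 38.9% and the grey at 88.4 to 89.6%. Region width was not matched.

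Where H3K4me3 was kept, its peaks were narrower. At the 59 lost regions with H3K4me3 in all 6 lists, the median peak width was 1020, 985 and 1044 bp in untreated and 767, 756 and 672 bp in maltonis libraries. At the 10516 such regions called in all 6 H3K27ac lists the width went the other way, from 1509, 1487 and 1470 bp to 1721, 1766 and 1759 bp. The ratio of lost to called-in-all-6 width was 0.683 ± 0.0246 without and 0.419 ± 0.0329 with maltonis (SD, n = 3 each; exact permutation p = 0.1), with no overlap. Fold enrichment was lower in both classes, from 4.05 ± 0.0847 to 3.10 ± 0.0295 at lost regions and from 4.76 ± 0.0608 to 4.25 ± 0.0863 at the others (SD, n = 3 each). Its ratio also did not overlap between conditions, at 0.851 ± 0.00791 and 0.730 ± 0.0109 (SD, n = 3 each; exact permutation p = 0.1).

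Among the lost regions with H3K4me3 in 3 untreated and 0 maltonis lists, those with most H3K27ac reads after the chromosome 11 region were chr1:156780401-156787000, chr10:135265201-135273000, chr20:62198201-62202600 and chr7:149116401-149122000, with mean untreated reads of 210 to 243 and untreated H3K4me3 fold enrichments of 2.72 to 4.62. The strongest region that kept H3K4me3 in all 6 lists was chr12:94538601-94546800, where its fold enrichment was 2.46, 2.43 and 2.43 in untreated and 2.46, 2.44 and 2.36 in maltonis libraries. At chr1:152082201-152084400 the mark was kept too, at 5.43, 4.36 and 4.27 in untreated and 3.05, 3.61 and 3.59 in maltonis libraries. Loss of the H3K27ac call thus came with and without loss of the H3K4me3 call. The remaining strongest regions with H3K4me3 in all 6 lists, chr1:245316201-245320200, chr4:1580801-1582400 and chr22:29466801-29470600, had fold enrichments of 2.52 to 3.93 over all libraries.

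The H3K4me3 difference was present in lost regions of every strength. In the quartile with fewest H3K27ac reads, the share with H3K4me3 was 26.5% ± 1.05 in untreated and 10.6% ± 1.18 in maltonis libraries, and in the quartile with most reads it was 15.1% ± 1.43 and 4.11% ± 1.35 (SD, n = 3 each). The conditions did not overlap in any of the 4 quartiles. They did not overlap either for lost regions with a lost neighbour within 50 kb (16.0% ± 0.630 and 5.30% ± 0.947) or without (18.2% ± 0.932 and 7.11% ± 0.832; SD, n = 3 each). Isolation from persisting H3K27ac went with more H3K4me3, since the 594 lost regions with no region called in all 6 within 50 kb had 24.2% ± 1.10 and 11.2% ± 1.01, and the other 1582 had 15.1% ± 0.587 and 4.85% ± 0.727 (SD, n = 3 each).

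H3K9me3 overlapped lost regions about as often as H3K4me3 did before treatment. A peak overlapped 17.9, 17.7 and 18.8% of them in untreated and 16.5, 15.2 and 14.4% in maltonis libraries, which is 18.1% ± 0.548 and 15.4% ± 1.05 (SD, n = 3 each; exact permutation p = 0.1), and the conditions did not overlap. The mark was thus not called at more lost regions after maltonis. Regions called in all 6 H3K27ac lists had 27.3% ± 0.295 and 26.1% ± 0.555, and all merged regions 21.8% ± 0.312 and 20.4% ± 0.737 (SD, n = 3 each). The ratio of lost to called-in-all-6 share was 0.664, 0.648 and 0.682 in untreated and 0.622, 0.576 and 0.567 in maltonis libraries and did not overlap (exact permutation p = 0.1). Without maltonis replicate 3, the library with fewest H3K9me3 reads in peaks, the difference in share was −2.29 percentage points against −2.76 with it, and the conditions still did not overlap. With overlaps of at least 50% of the shorter interval it was −1.32, again without overlap. The H3K9me3 maltonis lists held fewer peaks than the untreated ones (29277 to 29832 against 33643 to 34870), and the part of this in the result was not tested.

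Single lost regions rarely switched H3K9me3 in all libraries of both conditions at once. H3K9me3 was called in all 6 lists at 160 lost regions (7.35%, against 11.3% of all merged regions) and in none at 1522 (69.9%, against 65.8%). It was called in some lists only at 494 (22.7%, against 22.9% of all merged regions). More untreated than maltonis lists had it at 264 lost regions (12.1%, near the 11.2% of all merged regions) and fewer at 146 (6.71%, against 8.28%). Of the 247 lost regions with it in all 3 untreated lists, maltonis replicates 1, 2 and 3 called it at 81.8, 79.4 and 74.1%. The untreated share in these regions is complete by construction, so a lower maltonis share is built in. All 3 maltonis lists kept H3K9me3 at 160 of these 247 regions. The same held for 4081 of 5600 merged regions and for 2899 of 3896 regions called in all 6 H3K27ac lists. H3K9me3 was called in all 3 untreated and 0 maltonis lists at 23 lost regions (1.06%), against 0.776% of all merged regions, and the reverse was found at 8 (0.368%) against 0.607%. An example of the former was chr10:124298201-124306000, with 110, 56 and 72 H3K9me3 reads in untreated peaks and no peak in maltonis lists. At chr7:117983601-117995800 H3K9me3 stayed called in all 6 lists, with 326, 293 and 572 reads in untreated and 630, 262 and 246 in maltonis peaks, which overlapped. At chr7:1440601-1453200 and chr2:127910001-127924600 it was called in 5 of 6 lists. Both H3K4me3 and H3K9me3 were called in all 3 untreated lists at 26 lost regions (1.19%), and neither mark in any untreated list at 1192 (54.8%). The matching shares over all merged regions were not counted.

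H3K9me3 marked the more isolated lost regions more often. It overlapped 23.0% ± 0.879 of the 884 lost regions more than 50 kb from untreated H3K4me3 and 14.4% ± 0.359 of the 1054 within 50 kb but not on it, in untreated libraries (SD, n = 3 each). In maltonis libraries these shares were 18.1% ± 2.17 and 11.3% ± 0.359 (SD, n = 3 each). The conditions did not overlap in either group. For the 594 lost regions with no region called in all 6 H3K27ac lists within 50 kb, the H3K9me3 share was 22.6% ± 0.842 and 19.8% ± 1.69 (SD, n = 3 each), and the conditions overlapped (exact permutation p = 0.2).

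Read counts of H3K9me3 regions gave few calls near lost regions. Counts were compared with edgeR's quasi-likelihood test over the 14165 merged H3K9me3 regions called in all 6 lists, of which 1842 overlapped a lost region or lay within 50 kb of one. A region was called when its false discovery rate (FDR) did not exceed 0.01 and its log2 change was 0.58 or more in size. Of the 1842 regions, 2 had more reads after maltonis (0.109%, against 0.254% of all regions tested) and 0 had fewer (0.0141% of all tested), with 251 (13.6%) at an unadjusted p under 0.05, against 14.0% of all tested. DESeq2 called 14 with more (0.760%, against 0.932% of all tested) and 10 with fewer (0.543%, against 0.261%). edgeR called 1 region when untreated replicate 2 or 3 or maltonis replicate 1 or 2 was left out.

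Both edgeR calls were gains of H3K9me3. At chr20:62170801-62209000, which overlaps lost H3K27ac, H3K9me3 reads were 210, 180 and 177 in untreated and 500, 506 and 458 in maltonis libraries (log2 fold change 1.48 ± 0.117 SE, edgeR FDR = 0.00044). At chr5:881201-893600 they were 148, 126 and 97 against 320, 360 and 280 (log2 fold change 1.48 ± 0.174 SE, edgeR FDR = 0.0028). With the length called in each library as an offset the changes were 0.11 and 0.51 on the log2 scale with edgeR FDR of 0.86 and 0.099, so neither call held per called length.

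The 50 kb on either side of a lost region also held less H3K27ac after maltonis. On average 16.8, 17.6 and 17.3 kb of the 100 kb of flank were under H3K27ac peaks in untreated libraries and 10.8, 10.6 and 10.0 kb in maltonis libraries. Around regions called in all 6 lists the values were 20.8, 22.02 and 21.7 kb against 17.6, 17.5 and 16.3 kb. The ratio of the former to the latter was 0.803 ± 0.0054 without and 0.610 ± 0.00398 with maltonis (SD, n = 3 each). Since H3K27ac chose the regions, these are descriptions.

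Most of that reduction lay in H3K27ac regions that persisted and became shorter. The mean difference of −6.80 kb was made up of −3.87 kb in regions called in all 6 lists, −1.33 kb in other lost regions, −1.65 kb in regions called in only some lists and 0.0464 kb in gained regions. Around regions called in all 6 the first 3 of these were −2.72, −0.625 and −1.15 kb. The 3044 regions called in all 6 lists that lay within 50 kb of a lost region had a median called length of 6600, 7000 and 7000 bp in untreated and 5000, 4800 and 4600 bp in maltonis libraries. The 16460 farther away had 6000, 6200 and 6200 bp against 5400, 5200 and 5000 bp. All 3 maltonis lists called a shorter length than every untreated list at 45.8% of the near and 25.2% of the far regions, with 28.4% over all of them.

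Reads in these persisting neighbours were lower as well, which is a description, since the same H3K27ac libraries chose the lost regions. By edgeR with the same criteria, 1124 of the 3044 (36.9%) had fewer reads after maltonis, against 19.5% of all 19504 regions called in all 6 lists, and 111 (3.65%) had more, against 8.05%. Their median log2 change was −0.35 and that of all regions −0.02. With the called length as an offset 166 (5.45%) had fewer and 146 (4.80%) more, against 2.28% and 5.77% of all 19504 regions. That offset moved the median log2 change to 0.07 near lost regions and to 0.16 over all regions. Far fewer regions thus had fewer reads per called length, but their share was still higher near lost regions than over all regions. The adjacent region chr7:150632201-150655000, inside the second chain, held 2272, 2298 and 2319 reads in untreated and 255, 293 and 170 in maltonis libraries (log2 change −3.22 ± 0.114 SE) and −1.49 per called length. At chr14:101138401-101151800 reads were 2823, 3026 and 3027 against 291, 361 and 331 (log2 change −3.13 ± 0.0442 SE). In the other direction, chr13:33121401-33125400 held 121, 74 and 117 reads in untreated and 346, 355 and 353 in maltonis libraries (log2 change 1.80 ± 0.194 SE), so that neighbours of lost regions were not uniformly lower.

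**Figure D5:**
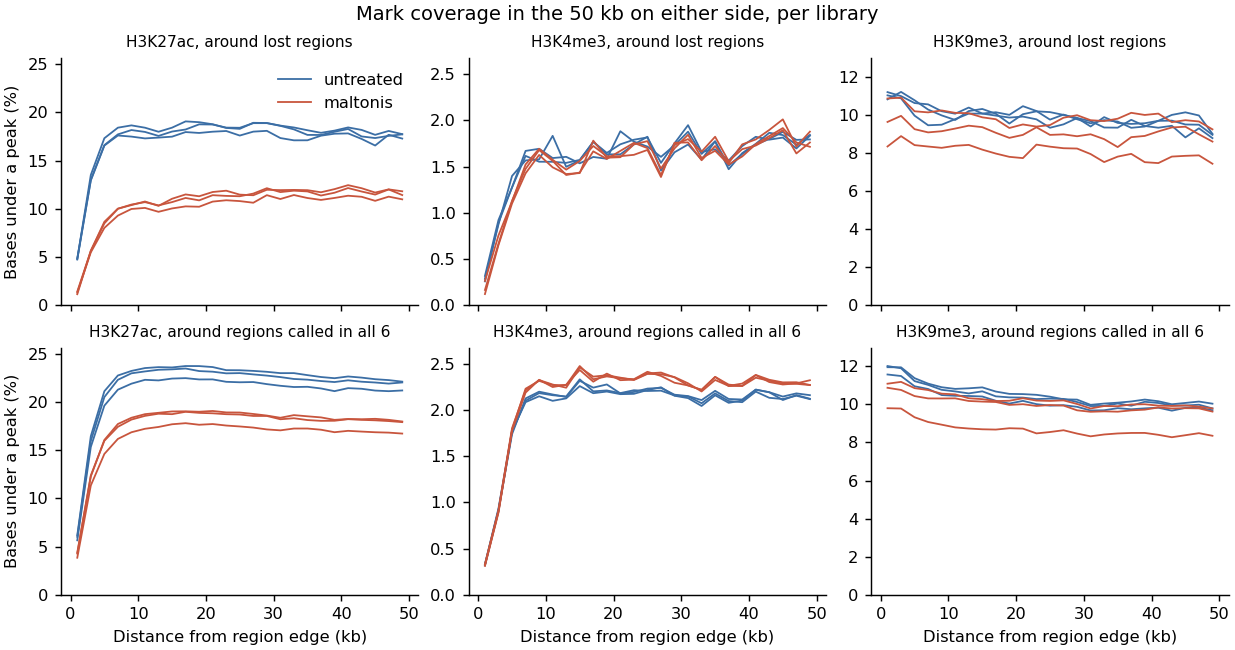
Percent of bases under a peak by distance from the region edge (kb, bins of 2 kb), for H3K27ac, H3K4me3 and H3K9me3 (columns) around lost regions (top) and regions called in all 6 lists (bottom); each line is a library, blue untreated and red maltonis. H3K27ac around lost regions lies lower in maltonis libraries at every distance, from 4.73 to 4.84% against 1.13 to 1.40% in the first bin to 17.3 to 17.7% against 11.0 to 11.8% in the last.

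The other marks differed little in the flanks. H3K4me3 covered 1.61, 1.57 and 1.60 kb of the flanks of lost regions in untreated and 1.56, 1.53 and 1.54 kb in maltonis libraries (difference −0.05 kb, exact permutation p = 0.1, no overlap). With H3K4me3 peaks of −log10 q of at least 10 only, the difference was 0.0442 kb in the other direction and the conditions overlapped. Around regions called in all 6 the flanks went from 2.03 ± 0.0134 to 2.16 ± 0.00372 kb (SD, n = 3 each), and the ratio of both classes was 0.784 ± 0.00628 without and 0.714 ± 0.00823 with maltonis (SD, n = 3 each; exact permutation p = 0.1), without overlap. H3K9me3 covered 9.67, 9.99 and 9.97 kb of the flanks of lost regions against 9.88, 9.08 and 8.04 kb, which overlapped (exact permutation p = 0.2). Without maltonis replicate 3 that difference was −0.393 kb, and without maltonis replicate 1 it was −1.32 kb with no overlap. At 25 kb from the edge of lost regions, H3K9me3 covered 9.32, 10.1 and 9.74% of bases in untreated and 9.46, 8.94 and 8.32% in maltonis libraries. Around regions called in all 6 it covered 9.94, 10.3 and 10.4% against 10.2, 9.97 and 8.55%. Maltonis replicate 3 was lowest in both.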

How the data were processed

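ChIP-seq peak lists of 18 libraries (3 marks, 2 conditions, 3 replicates, biological triplicates per the study) were used as deposited, with groups taken from the sample titles. Per the labels the submitters used BWA, SAMtools, MACS2, SICER and hg19, and the study's methods name epic2 for H3K9me3 and H3K27ac; versions, caller settings and controls are not given in the sources used here. The H3K4me3 lists deposited by the authors give a fold enrichment (ratio over local background), a score and −log10 q per peak. The H3K9me3 and H3K27ac lists deposited by the authors give a read count per region, not normalised, and an island score; the count belongs to the boundaries called in that library. epic2 joins windows of 200 bp. Depth is known only as reads in peaks, and the H3K4me3 lists hold no counts.

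Peaks on chromosomes 1 to 22 were merged and classed by list, and overlaps needed 1 bp. Library values were compared by exact two-sided permutation. Counts summed over regions called in all 6 lists were tested with edgeR 4.0.16 (TMM, quasi-likelihood, Benjamini-Hochberg) in R 4.3.3, and DESeq2 1.42.0 was an alternative; H3K27ac tests are descriptive since the mark chose the regions. p-values measure the spread between these samples of one cell line. Interval functions and the count test were tested on simulated data. Alternatives were other peak admission rules, merging within 1000 bp, chromosome X, 50% overlap, other flank widths, left-out libraries and a replicate block. The members and tests were chosen with earlier results of these data known. Regions named are the 8 lost regions with most reads, the 5 strongest with H3K4me3 in 3 untreated and 0 maltonis lists and in all 6, the 5 strongest with H3K9me3 in at least 3 lists, and the 3 chains with most members; neighbouring regions called by read counts were named for the size of their change, after their values were seen. Gene names, gene lists and sequences were not analysed here, since no annotation or genome of hg19 was used.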

Additional observations from a re-analysis of the deposited data

How the results depend on the processing

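The lower H3K4me3 share at lost regions, and its difference from regions called in all 6 H3K27ac lists, kept direction and non-overlap under every alternative run. With a replicate block (a paired sign-flip test over replicate numbers, smallest p 0.25) the H3K4me3 share differed by −11.0 percentage points with exact p = 0.25, and the conditions did not overlap. In edgeR the block gave 1209 H3K27ac calls near lost regions, against 1235 without it, and 2 H3K9me3 calls there, as without it. No pairing by replicate number was seen: correlations of deviations between same-numbered libraries were between −0.0191 and 0.0307, and not every library correlated best with its own number. Such correlations cannot show whether same-numbered libraries share a culture, so pairing remains unknown. Leaving out a library moved the H3K4me3 share difference between −11.4 and −10.6 points.

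The number of lost regions was 1765 with the strongest 75% of peaks, 1862 with equal numbers of peaks, 3149 with a common lowest island score, 1874 when merging within 1000 bp, 2231 with chromosome X and 2476 to 2917 without a library. With the strongest 75% of peaks the median called length of lost regions was 3400 bp (2933 bp with all peaks, 2867 to 3000 bp under the other alternatives), the median reads 147, the share with a lost neighbour 26.6% and the H3K27ac flank difference −5.79 kb. Equal numbers gave 115 reads, 26.7% and −6.26 kb, the common lowest score 112 reads, 35.0% and −7.31 kb, and merging within 1000 bp 25.5% and −5.66 kb. Without a library the reads were 101 to 109 and the neighbour share 30.8 to 35.4%. Flanks of 25 and 100 kb gave H3K27ac differences of −3.62 and −12.4 kb.

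The H3K4me3 flank difference (−0.0508 kb) overlapped between conditions with the common lowest score (−0.0218 kb), merging within 1000 bp (−0.0338 kb) and 100 kb flanks (−0.0404 kb), and reversed at −log10 q of at least 10 (0.0442 kb). The H3K9me3 flank difference ranged from −1.32 to −0.393 kb without a library. In the third quartile of lost regions by H3K27ac reads, a split added after seeing the data, the H3K9me3 share difference was −1.59 points with overlap. H3K9me3 calls near lost regions were 24 with DESeq2, 4 with the called-length offset and 1 to 2 without a library, against 2. Over all H3K9me3 regions tested, those called with more reads numbered 36, and 11 with the replicate block, 132 with DESeq2 and 1 to 12 without a library. H3K27ac calls near lost regions were 312 with that offset, against 1235. The causes were not tested, beyond the offset's own removal of length. Weak peaks and thin H3K4me3 under lost regions limit the precision.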
